A study of Arabidopsis thaliana with 28 samples.

Results

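Expansins and xyloglucan endotransglucosylase/hydrolases (XTHs) are 2 large families of proteins that act on plant cell walls. Of their genes, 29 were read in Columbia-0 root tips of Arabidopsis thaliana. They were the probe sets that the platform annotation paired with exactly 1 gene whose symbol or synonym is EXPA, EXPB, EXLA, EXLB or XTH and a number. These gave 29 of the 22746 probe sets tested, 1 per gene, and 29 of the 13356 genes that the annotation paired with a probe set alone: 10 α-expansins (EXPA), 4 β-expansins (EXPB), 3 expansin-like A genes (EXLA), 2 expansin-like B genes (EXLB) and 10 XTHs. A RefSeq gene table of the species held 70 loci of these families, so the genes described are not the whole families. The annotation did not list 8730 of the probe sets tested, and any family members among those could not be found by name. The study measured root tips on Affymetrix ATH1 arrays to ask how dividing and elongating cells respond to hydrogen peroxide (H2O2). All seedlings were wild type and 5 days old, counted from imbibition in the protocol and from germination in the sample descriptions. Roots on medium with 1 mM H2O2 were taken at 1, 3 and 6 h, and roots on control medium (MS) at 0, 1, 3 and 6 h. Every root tip was cut by hand under a microscope into an elongation zone (EZ) and a meristematic zone (MZ). The 14 groups, 7 per zone, had 2 arrays each, and every array came from a biological replicate of 30 pooled roots.

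Plant cells grow when their wall yields to turgor. Expansins loosen the wall without cutting its polymers, mainly at the contacts between cellulose and other polysaccharides, and α- and β-expansins are the branches with known wall-loosening activity, whereas the function of the expansin-like proteins is less clear. XTHs cut xyloglucan, the main hemicellulose of these walls, and either rejoin the cut end to another xyloglucan chain or, in a few members, release it by hydrolysis. In the root, cells divide in the meristematic zone and lengthen fast in the elongation zone, and H2O2 and other reactive oxygen species are known to take part in the change from one to the other.

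Markers were looked for by name among the probe sets that the annotation paired with 1 gene. In this way 5 of the 17 for dividing and stem cells and 1 for root hair cells were found. All 5 measured genes of dividing and stem cells (BBM, AUR1, AUR2, AUR3 and BUBR1) were lower in the elongation zone, and their summed signal was 213 to 461 in EZ control arrays and 1291 to 2351 in MZ control arrays. SCN1, a gene known from the placing of root hairs, was higher in the elongation zone by 0.82 ± 0.07 (SE) on the log2 scale. No marker of root cap, endodermis, xylem or phloem was found in this way, so the content of those cells was not checked. The log2 ratio of the 3′ to the 5′ probe set of GAPDH, a sign of RNA length, was 0.0338 ± 0.220 in EZ control arrays and 0.434 ± 0.184 in MZ control arrays (SD, n = 8 each). It moved with the zone, and its part in the zone differences was not tested. Arrays of one group correlated with r of 0.965 to 0.987. On the second principal component (4.35% of the variance) 6 of the 8 arrays taken at 1 h lay between -39.4 and -24.8, while the control arrays numbered 1 at 1 h lay at -2.39 and 6.86, among the 20 arrays of other times (-6.87 to 20.3). Results that rest on the 1 h controls are therefore given with and without them.

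Signals are the deposited linear intensities, without unit. Fold changes are differences of log2(signal + 16), which understate the change of dim genes, and are given ± SE. A gene passed the test at a Benjamini-Hochberg adjusted p under 0.05 in limma, adjusted over all 22746 probe sets. Signals of different genes come from different probes and are not compared with each other. Of the 29 genes, 18 reached a signal of 50 in at least 1 array, and 11 stayed at or below 46.8 in all 28 arrays. Those 11 were EXLA3, EXLB1, EXLB2, EXPA16, EXPA21, EXPA24, EXPB2, EXPB5, XTH20, XTH26 and XTH29.

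In roots on control medium most of the expansin and XTH genes that differed between the zones were higher in the elongation zone. Over the 4 control times 16 of the 29 genes were higher there, 3 were lower and 10 did not pass the test. The total of 65.5% stood near the 58.3% of all probe sets that differed between the zones. The split was another one: 55.2% of these genes were higher against 26% of all probe sets, and 10.3% were lower against 32.3% of all. With arrays shifted to a common median, 21 of the 29 genes were higher and 3 lower, and of all probe sets 10595 were higher and 5559 lower, where the scaling used here gave 5910 and 7349. The median log2 fold change was 0.48 over the 29 genes and -0.02 over all probe sets. XTHs and expansins divided unequally. Of the 10 XTHs, 8 were higher in the elongation zone and none was lower, with a median of 0.98. Among the 19 expansins and expansin-like genes, 8 were higher, 3 were lower and 8 did not pass, with a median of 0.08, and all 3 lower ones were α-expansins. The difference between the families was not tested. Of the 11 dim genes, whose fold changes are understated, XTH20, XTH26 and XTH29 were the only XTHs. In sections of tissue, a larger number of cells that use a gene and more RNA per cell cannot be told apart.

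**Figure D1:**
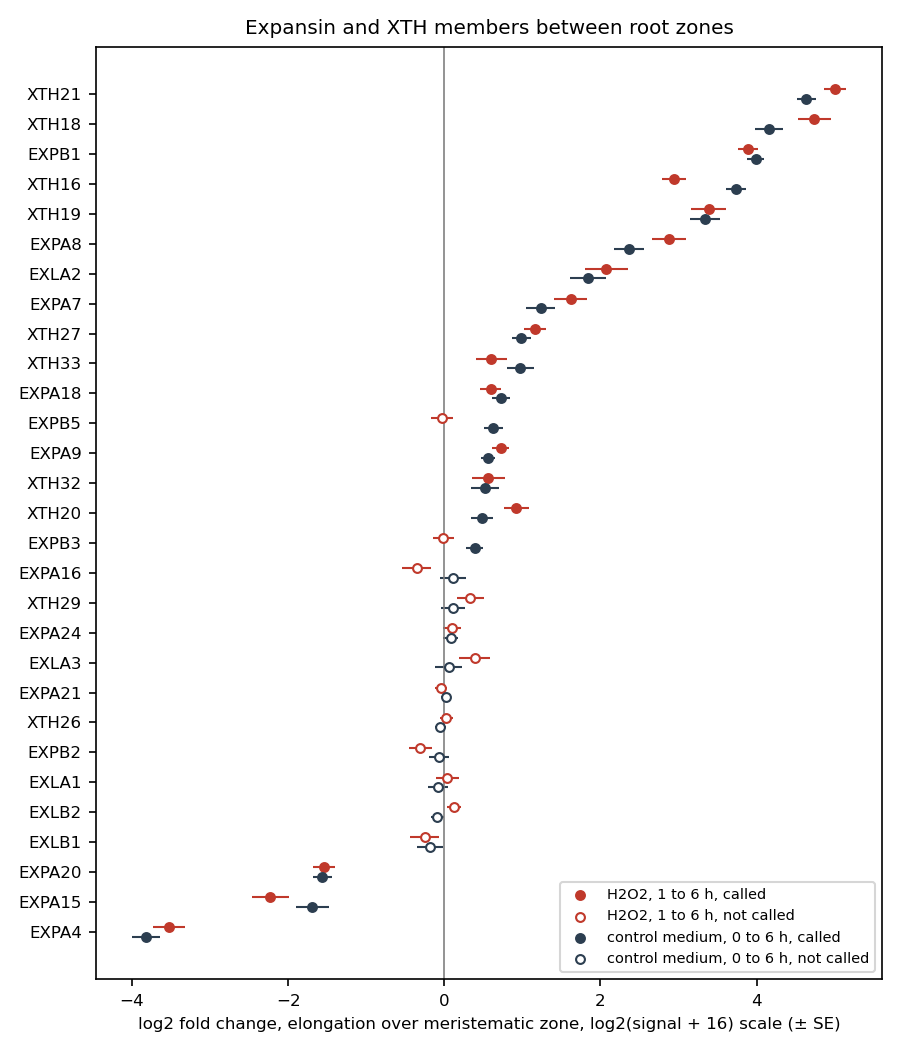
Log2 fold change of each of the 29 genes, elongation over meristematic zone, on the log2(signal + 16) scale (x axis, error bars ± SE), with H2O2 (red, mean over 1 to 6 h) above control medium (dark, mean over 0 to 6 h). Filled points passed the test. From XTH21 down to EXPB3 the 16 genes higher on control medium stand right of 0, and EXPA20, EXPA15 and EXPA4 stand left of it.

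Among the XTHs, XTH21 (AT2G18800), which is known from work on primary root growth, had the largest zone difference at the pseudocount of 16. Its signal lay between 213 and 566 (median 460) in the 8 EZ control arrays and between 0.384 and 1.42 (median 1.01) in the 8 MZ control arrays. The zones did not overlap, and XTH21 was at the bottom of the signal range throughout the meristematic zone (log2 fold change 4.64 ± 0.12, adjusted p = 1.54e-16). The size of that fold is set by the pseudocount, being 7.73 with a pseudocount of 1 and 2.86 with 64, where XTH16 (3.29), XTH19 (3.08) and XTH18 (2.93) were ahead of it. XTH18 (AT4G30280), an enzyme needed for full length of root epidermal cells, ran from 189 to 792 (median 656) in EZ control arrays and from 2.33 to 28.8 (median 16.7) in MZ control arrays. It was higher by 4.16 ± 0.18 (adjusted p = 1.01e-13). Its chromosomal neighbour XTH19 (AT4G30290) had signals of 1265 to 3113 (median 2421) in EZ control arrays against 93.2 to 497 (median 187) in MZ control arrays. Its mean signal was 10.2 times as high in the elongation zone (log2 fold change 3.34 ± 0.19, adjusted p = 5.17e-12). XTH16 (AT3G23730) lay between 1038 and 2311 (median 1631) in EZ control arrays and between 43.6 and 206 (median 116) in MZ control arrays, with a mean 14.4 times as high in the elongation zone (3.74 ± 0.13, adjusted p = 5.2e-15). Together, XTH16, XTH18, XTH19 and XTH21 were the 4 XTHs with the largest zone differences.

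The other XTHs that passed differed less. XTH27, also known as EXGT-A3 and as a gene of tracheary element development in leaves, had 486 to 841 (median 619) in EZ control arrays and 207 to 413 (median 322) in MZ control arrays. The arrays did not overlap, but the mean differed only 2.04-fold (log2 fold change 0.99 ± 0.12, adjusted p = 4.35e-07). XTH33, whose product is held at the plasma membrane, had 22.1 to 66.2 in EZ control arrays with a median of 43.5, and a median of 15.1 in MZ control arrays (0.97 ± 0.17). XTH32 (0.52 ± 0.18, adjusted p = 0.0183) and XTH20 (0.48 ± 0.14) were higher by the smallest amounts, with signals of at most 63.3 and 37.4 in the control arrays of either zone. The call of XTH32 was lost with a pseudocount of 1 (limma adjusted p = 0.0762). It was also lost without the EZ control array numbered 1 at 0 h or at 1 h. The same held without the MZ control array numbered 2 at 3 h, or without both 1 h control arrays numbered 1. XTH26, a gene of root hairs, and XTH29 did not pass and were dim throughout.

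Among the expansins higher in the elongation zone, EXPB1 (AT2G20750) had the largest zone difference. It had signals of 1700 to 3713 (median 2597) in EZ control arrays and 88.5 to 200 (median 152) in MZ control arrays. The mean was 17.5 times as high in the elongation zone, and the highest MZ control array stayed far below the lowest EZ control array (log2 fold change 3.99 ± 0.11, adjusted p = 2.78e-16). EXPA8 (AT2G40610) had 65.3 to 209 (median 106) in EZ control arrays and 3.42 to 16.4 (median 6.25) in MZ control arrays (2.36 ± 0.19, adjusted p = 8.7e-10). EXLA2 (AT4G38400), an expansin-like gene studied in the growth of dark-grown hypocotyls, had 69.9 to 241 (median 122) in EZ control arrays and 2.87 to 47.5 (median 30.7) in MZ control arrays (1.84 ± 0.23, adjusted p = 6.22e-07). These 3 genes came from 3 branches of the expansins, and none of them overlapped between the zones. EXPB1 moved little with the pseudocount, with 4.13 at a pseudocount of 1 and 3.63 at 64. The folds of genes near the bottom of the range in the meristematic zone moved more: EXPA8 had 3.67 and 1.26, and EXLA2 2.59 and 1.10.

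EXPA7 and EXPA18 are known from root hair cells, both needed for or marking the first bulge of a hair. EXPA7 (AT1G12560) had 23.6 to 81.7 (median 40.7) in EZ control arrays and 1.16 to 18.2 (median 10.8) in MZ control arrays (1.24 ± 0.19, adjusted p = 5.91e-06). EXPA18 (AT1G62980) had 24.7 to 71.6 (median 45.6) in EZ control arrays and 12.5 to 48.9 (median 20.7) in MZ control arrays (0.73 ± 0.12, adjusted p = 1.31e-05). EXPA7 did not overlap between the zones, whereas EXPA18 did. With pseudocounts of 1 and 64 the fold was 2.27 and 0.57 for EXPA7 and 1.08 and 0.37 for EXPA18. The same settings gave 1.72 and 0.45 for XTH33, 0.82 and 0.25 for XTH32, 1.37 and 0.17 for XTH20, and 1.19 and 0.26 for EXPB5.

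EXPA9 (AT5G02260) was abundant in both zones, with signals of 1471 to 2947 (median 2166) in EZ control arrays and 895 to 2027 (median 1577) in MZ control arrays. It was higher in the elongation zone by 0.56 ± 0.09 (adjusted p = 1.7e-05), with overlapping arrays. EXPB3 (0.39 ± 0.11) and the dim EXPB5 (0.63 ± 0.12) completed the expansins that were higher. EXLA1, with medians of 71.3 in EZ control arrays and 83.0 in MZ control arrays, was the only gene above the dim range that did not pass in this comparison (-0.08 ± 0.13, 95% interval -0.35 to 0.19, and 0.20 with arrays shifted to a common median). The other 9 genes that did not pass were among the 11 dim ones: EXLA3, EXLB1, EXLB2, EXPA16, EXPA21, EXPA24, EXPB2, XTH26 and XTH29.

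The 3 α-expansins of the opposite direction differed clearly. EXPA4 (AT2G39700) had signals of 2.51 to 33.3 (median 19.2) in EZ control arrays and 250 to 573 (median 480) in MZ control arrays. It was lower in the elongation zone by a log2 fold change of -3.82 ± 0.18 (adjusted p = 2.27e-13), with -4.95 at a pseudocount of 1 and -2.62 at 64. EXPA20 (AT4G38210) had 27.4 to 54.7 (median 41.1) in EZ control arrays and 117 to 189 (median 142) in MZ control arrays (-1.56 ± 0.12, adjusted p = 5.53e-10), and -1.90 and -1.03 at those pseudocounts. EXPA15 (AT2G03090) was abundant in both zones, with 216 to 907 (median 544) in EZ control arrays and 1080 to 2017 (median 1638) in MZ control arrays (-1.69 ± 0.21, adjusted p = 3.55e-07). Its mean was 3.11 times as high in the meristematic zone. None of the 3 overlapped between the zones.

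In all, 9 genes had every EZ control array above every MZ control array (EXLA2, EXPA7, EXPA8, EXPB1, XTH16, XTH18, XTH19, XTH21 and XTH27), which is 9 of 29 where 13.9% of all probe sets did so. The 3 lower genes had every EZ control array below, as did 20.5% of all probe sets.

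**Figure D2:**
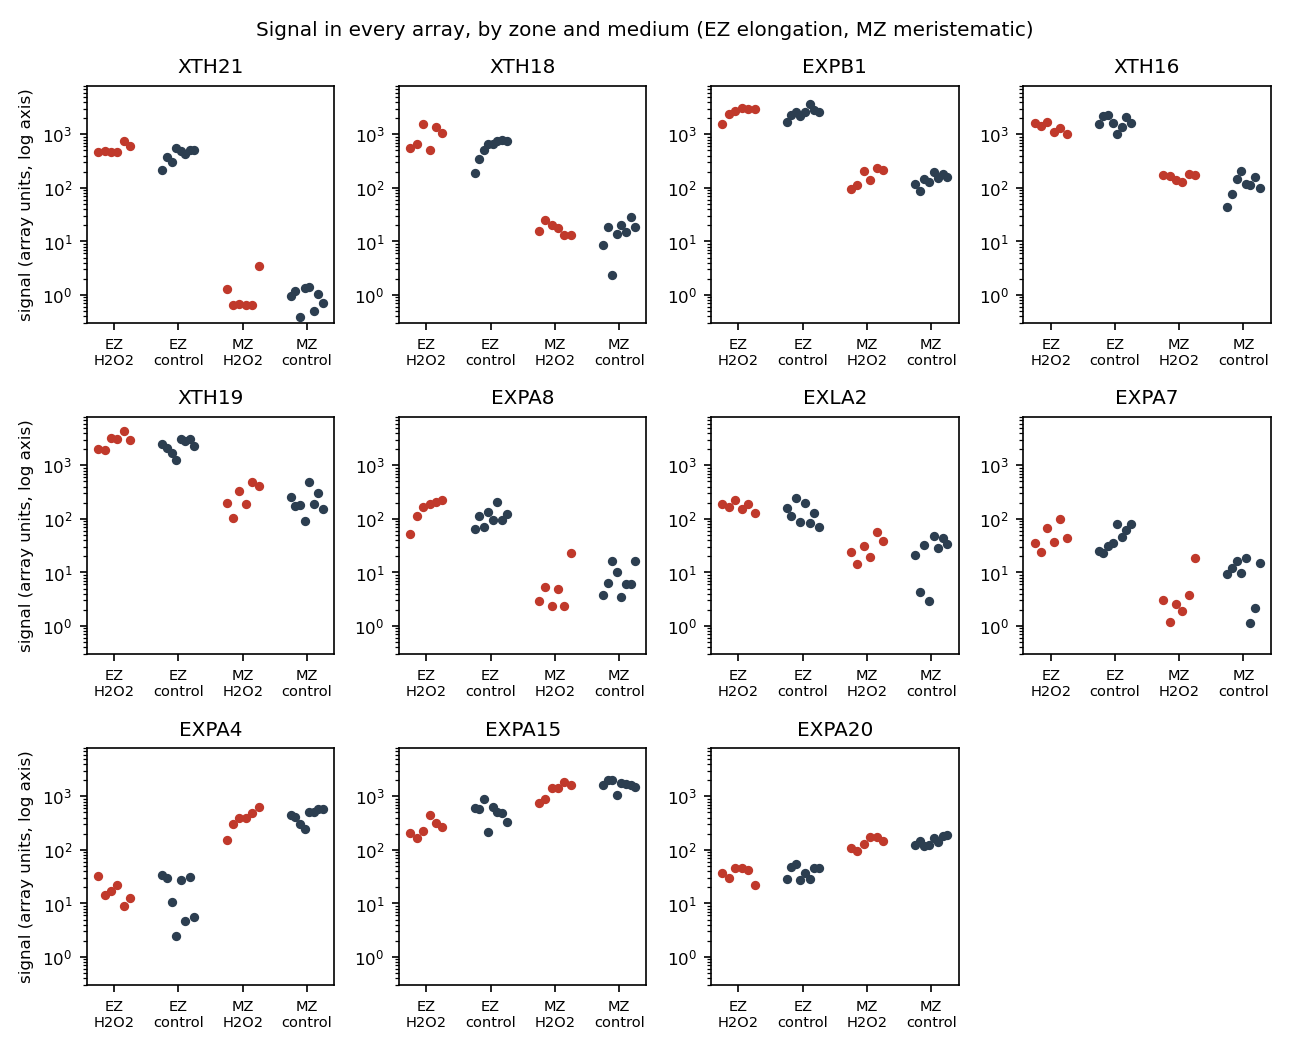
Signal in every array (y axis, linear array units on a log axis) of the 8 genes with the highest and the 3 with the lowest zone difference, by zone and medium, with 6 H2O2 arrays (red) and 8 control arrays (dark) per zone. XTH21 stays at or below 3.46 in all MZ arrays, and EXPA4, EXPA15 and EXPA20 are the genes whose MZ arrays stand above their EZ arrays.

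On H2O2 the zones differed in much the same genes. Over 1, 3 and 6 h on H2O2, 14 of the 29 genes were higher in the elongation zone and 3 were lower, where 23.6% of all probe sets were higher and 32.9% were lower (56.5% in either direction). With arrays shifted to a common median, 22 of the 29 genes were higher and 3 lower, and of all probe sets 10098 were higher and 5232 lower. All 17 had the same direction on control medium. EXPB3 and EXPB5 passed on control medium alone, none passed on H2O2 alone, and 10 passed on neither. XTH21 had 466 to 743 (median 486) in EZ H2O2 arrays and 0.641 to 3.46 (median 0.665) in MZ H2O2 arrays (log2 fold change 5.01 ± 0.14). XTH18 reached 4.74 ± 0.21, EXPB1 3.89 ± 0.13 and EXPA8 2.88 ± 0.22, while EXPA4 was lower by -3.52 ± 0.20 and EXPA15 by -2.23 ± 0.24. XTH16 had 1017 to 1721 (median 1382) in EZ H2O2 arrays and 130 to 181 (median 172) in MZ H2O2 arrays, a difference of 2.94 ± 0.15. Without the EZ H2O2 array numbered 1 at 1 h, 5 genes were lower, with EXPA16 (-0.53) and EXPB2 (-0.40) added. XTH32 (0.56 ± 0.21) lost its call without any one of 6 arrays. These were the EZ H2O2 arrays numbered 1 and the MZ H2O2 arrays numbered 2 at each time. XTH33 lost its call with a pseudocount of 1 (limma adjusted p = 0.0649). It also did so without the EZ H2O2 array numbered 1 at 6 h, where its log2 fold change was 0.48.

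Whether H2O2 changed the zone difference was tested over 1, 3 and 6 h, as the H2O2 effect in the elongation zone minus that in the meristematic zone. None of the 29 genes passed in limma, as none of all 22746 probe sets did (0%). At an unadjusted p under 0.05 there were 4 genes, against 4.27% of all probe sets. These were EXPB5 (-0.57 ± 0.20), XTH16 (-0.48 ± 0.22), EXPB3 (-0.40 ± 0.19) and XTH20 (0.59 ± 0.22). For EXPB3, the gene that passed between the zones on control medium alone and was above the dim range, the signal was 79.4 to 153 (median 99.1) in EZ H2O2 arrays and 95.3 to 211 (median 145) in EZ control arrays of the same times. In the meristematic zone it was 90.6 to 136 (median 103) in H2O2 arrays and 84.8 to 130 (median 110) in control arrays of the same times. At 1 h both MZ H2O2 arrays (104 and 92.2) lay below both MZ control arrays (109 and 111). The median of EXPB3 was thus lower on H2O2 in both zones, by more in the elongation zone. That difference between the zones did not pass the test.

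The effect of H2O2 itself did not pass in these genes. None of the 29 genes passed in any of the 6 comparisons of H2O2 with control medium at 1, 3 and 6 h in the elongation and meristematic zones, or in the mean over the 3 times in either zone, by limma with Benjamini-Hochberg adjustment. Among all probe sets, 0.0308%, 0.136% and 0.0572% passed at 1, 3 and 6 h in the elongation zone and 0.506% in its mean. In the meristematic zone 0%, 0.0396% and 0.136% passed at 1, 3 and 6 h and 0.259% in its mean, so a count of 0 among 29 genes is near what all probe sets showed. At an unadjusted p under 0.05 there were 3, 3 and 6 genes at 1, 3 and 6 h and 5 in the mean in the elongation zone. These are 10.3%, 10.3%, 20.7% and 17.2% of the 29 genes, where all probe sets gave 6.69%, 5.8%, 7.83% and 8.9%. The meristematic zone had 1, 1 and 4 genes and 2 in the mean, or 3.45%, 3.45%, 13.8% and 6.9%, where all probe sets gave 2.25%, 5.05%, 8.03% and 5.78%. The median size of the mean effect, whichever its sign, was 0.26 over the 29 genes and 0.11 over all probe sets in the elongation zone. In the meristematic zone it was 0.13 and 0.09.

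**Figure D3:**
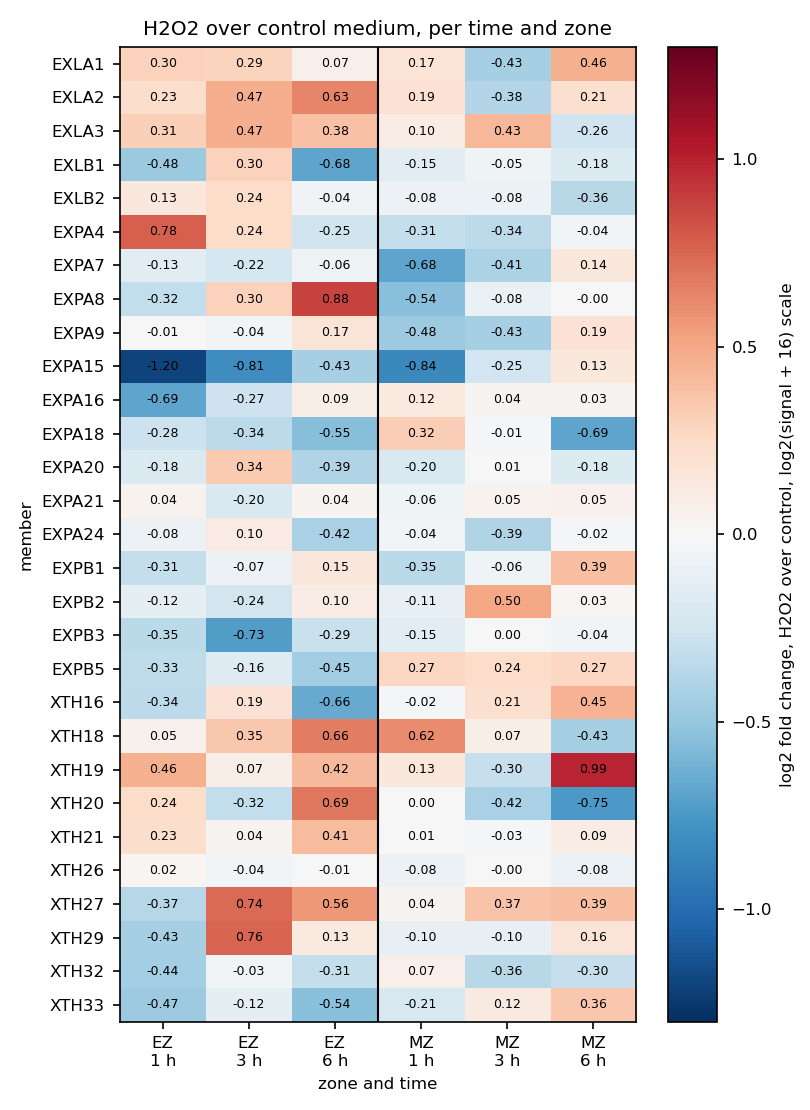
Log2 fold change, H2O2 over control medium, on the log2(signal + 16) scale, for each of the 29 genes (rows) at 1, 3 and 6 h in the elongation zone (EZ, left) and the meristematic zone (MZ, right). Red is higher and blue lower on H2O2, no cell passed the test, and EXPA15 has the lowest values at 1 h in both zones.

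EXPA15 had the largest mean difference on H2O2. Its EZ signals on H2O2 were 206 and 166 at 1 h, 223 and 449 at 3 h, and 314 and 271 at 6 h. On control medium they were 907 and 216 at 1 h, 634 and 507 at 3 h, and 480 and 331 at 6 h. Both H2O2 arrays lay below both control arrays at each time, in EXPA15 alone of the 29 genes and in 0.884% of all probe sets, while none of the 29 genes, and 0.906% of all probe sets, had both H2O2 arrays above in that way. The mean log2 fold change was -0.81 ± 0.24 (95% interval -1.31 to -0.32, adjusted p = 0.204). The 1 h control arrays differed 907 to 216, the array numbered 2 lying near the H2O2 arrays. Without that array the log2 fold change was -2.20 at 1 h and -1.15 in the mean. Without the 1 h control array numbered 1 the mean log2 fold change was -0.48. The size of the EXPA15 difference therefore turned on the 1 h control arrays. In the meristematic zone EXPA15 had 754 and 887 on H2O2 and 2017 and 1080 on control medium at 1 h, with 1455 and 1452 against 1791 and 1673 at 3 h and 1815 and 1612 against 1603 and 1517 at 6 h. The H2O2 arrays were below the controls at 1 and 3 h and above them at 6 h (mean -0.32 ± 0.24). With single arrays left out this mean ran from -0.47 to -0.17.

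EXPB3 and EXLA2 had the next largest mean differences in the elongation zone. EXPB3 had 91.4 and 85.1 on H2O2 and 143 and 95.3 on control medium at 1 h. At 3 h it had 79.4 and 116 on H2O2 and 211 and 136 on control medium, and at 6 h 153 and 107 on H2O2 and 176 and 146 on control medium. The groups overlapped at 6 h only, and the mean was -0.46 ± 0.13 (adjusted p = 0.19). Without the EZ control array numbered 2 at 1 h the mean was -0.54. Over all single arrays left out it ran from -0.55 to -0.36. EXLA2 had 189 and 164 on H2O2 and 241 and 88.5 on control medium at 1 h, then 225 and 154 against 199 and 82.4 at 3 h. At 6 h it had 190 and 130 on H2O2 and 130 and 69.9 on control medium (mean 0.44 ± 0.27, 95% interval -0.12 to 1.01). Its control replicates differed from each other by more than the media did. With single arrays left out the mean log2 fold change of EXLA2 ran from 0.23 to 0.66.

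In the meristematic zone XTH20, EXPA15 and EXPA7 had the largest mean differences, and the first and last of these were dim there. XTH20, known from the rejoining of cut stems, had 13.0 and 5.99 on H2O2 against 5.01 and 14.2 on control medium at 1 h, and 1.04 and 2.57 against 15.3 and 2.02 at 3 h. At 6 h it had 8.48 and 2.16 on H2O2 and 21.1 and 17.9 on control medium. All of these signals were at the low end of the array, and the mean of -0.39 ± 0.16 did not pass (adjusted p = 0.716). EXPA7 ranged from 1.18 to 18.7 on H2O2 and from 1.16 to 18.2 on control medium of the same times (-0.32 ± 0.21). The dim genes EXPB5 and EXLB2 had no overlap between media at any of the 3 times in the meristematic zone. EXPB5 was higher on H2O2 in that way, as 0.677% of all probe sets were, and EXLB2 lower, as 0.528% were.

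**Figure D4:**
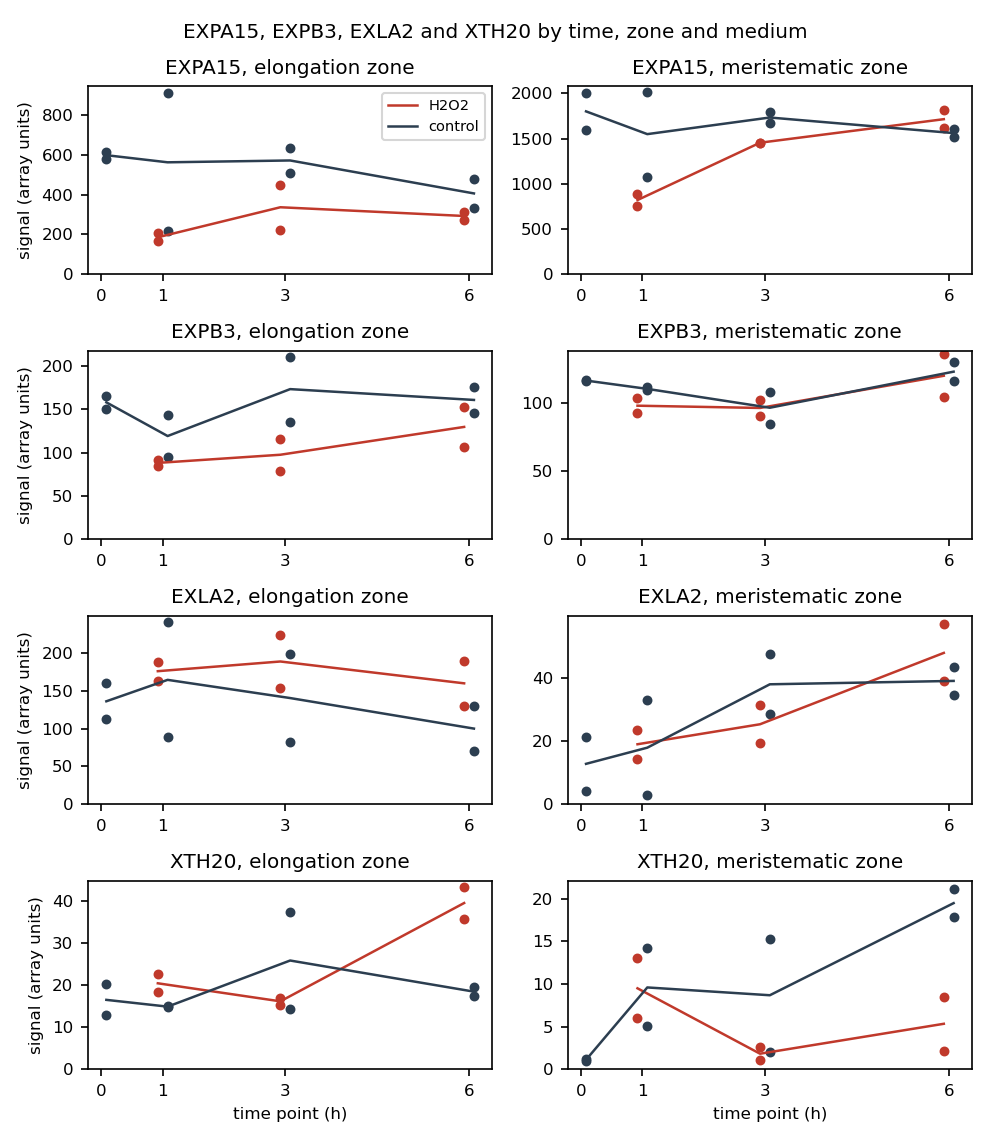
Signal (y axis, linear array units) by time point (x axis, h) of EXPA15, EXPB3, EXLA2 and XTH20 in the elongation zone (left) and the meristematic zone (right), with H2O2 in red and control medium in dark. Points are single arrays and lines join group means. The EZ control points of EXPA15 at 1 h stand at 907 and 216, and its 6 EZ H2O2 points lie below the control points of their time.

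The intervals of the mean H2O2 effect in the elongation zone were as follows for the 8 highest and 3 lowest genes of the zone comparison, beside EXLA2 and EXPA15 given above. XTH21 had 0.23 (95% interval -0.07 to 0.52), XTH18 0.35 (-0.09 to 0.79), EXPB1 -0.08 (-0.35 to 0.19), XTH16 -0.27 (-0.59 to 0.05) and XTH19 0.32 (-0.15 to 0.78). EXPA8 had 0.29 (-0.18 to 0.75), EXPA7 -0.14 (-0.59 to 0.31), EXPA20 -0.08 (-0.37 to 0.22) and EXPA4 0.26 (-0.17 to 0.68). Changes of 1 or more on the log2(signal + 16) scale lay outside these 9 intervals, but inside those of EXLA2 and EXPA15. That scale understates changes of dim signals, and EXPA4 had a mean signal of 13.8 in EZ control arrays of 1 to 6 h. Its interval therefore does not bound the change of its signal at the same size. XTH27 had 0.74 ± 0.24 at 3 h and 0.56 ± 0.24 at 6 h in the elongation zone, without passing after adjustment (adjusted p = 0.57 and 0.581). For EXPA9 in the meristematic zone the values were -0.48 ± 0.18 at 1 h and -0.43 ± 0.18 at 3 h, again without passing. XTH19 reached 0.99 ± 0.39 at 6 h there (adjusted p = 0.488), the highest value among the 29 genes in any H2O2 comparison.

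Time on control medium left few differences that passed. The labels do not say whether control seedlings were moved to fresh medium at 0 h. Against 0 h, XTH16 was the only gene of the 29 that passed in the meristematic zone, where 0.286% of all probe sets did. Its signals there were 43.6 and 75.3 at 0 h, 149 and 206 at 1 h, 120 and 111 at 3 h, and 158 and 99.9 at 6 h. All 6 later arrays lay above both 0 h arrays, and the mean of 1 to 6 h was 1.05 ± 0.22 above 0 h (adjusted p = 0.0405). XTH18 was the only one that passed in the elongation zone, where 0.69% of all probe sets did. It had 189 and 351 at 0 h, 513 and 665 at 1 h, 648 and 759 at 3 h, and 792 and 736 at 6 h. Again all 6 later arrays lay above both 0 h arrays (1.34 ± 0.30, adjusted p = 0.0471). EXPA18 in the elongation zone came close (0.80 ± 0.19, adjusted p = 0.0523), with 24.7 and 25.7 at 0 h and 41.7 to 71.6 later. EXPA7 and XTH27 there, and EXPB1, EXPB5 and XTH20 in the meristematic zone, also had all later control arrays above both 0 h arrays without passing. The share of all probe sets with this order was not counted.

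Both calls lay close to the threshold and were lost when any one of several arrays was left out. XTH16 no longer passed without either 0 h array of the meristematic zone (adjusted p = 0.418 without number 1 and 0.0956 without number 2), or without the control array numbered 2 at 1 h (0.0953), number 1 (0.0789) or 2 (0.0579) at 3 h, or number 1 at 6 h (0.1004). XTH18 no longer passed without the EZ control array numbered 1 at 0 h (0.69), number 2 at 1 h (0.0783) or at 3 h (0.0944), or number 1 (0.0619) or 2 (0.0974) at 6 h. EXPA18 passed without the EZ control array numbered 1 at 1 h (adjusted p = 0.0235) or at 3 h (0.0404). XTH21 passed without array number 2 at 0 h (1.05, adjusted p = 0.0488) or number 1 at 1 h (0.80, adjusted p = 0.0132).

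An F test over the 4 control times found EXPA9 in the meristematic zone (adjusted p = 0.0211), where 0.365% of all probe sets passed, and no gene of the 29 in the elongation zone, where 0.422% did. At an unadjusted p under 0.05 there were 7 genes in each zone by the same limma test, or 24.1% of the 29, where all probe sets gave 8.12% in MZ arrays and 13.6% in EZ arrays. EXPA9 had 1330 and 895 at 0 h, 1174 and 913 at 1 h, 1956 and 2027 at 3 h, and 1825 and 1865 at 6 h on control medium in the meristematic zone. The later 2 times stood apart from the earlier 2, with no overlap, and the share of all probe sets that did so was not counted. The call was lost without the MZ control array numbered 2 at 1 h (adjusted p = 0.0898) or without either array at 3 h (0.0593 without number 1 and 0.0649 without number 2). In the elongation zone the count was 2 without the control array numbered 1 at 1 h, from EXPA15 (adjusted p = 0.0472) and EXPA18 (0.0479).

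Since most 1 h arrays stood apart on the second principal component, 1 h was also set against the mean of 3 and 6 h over both media, a contrast chosen after the values were seen. For the meristematic zone, 5 of the 29 genes were lower at 1 h and none was higher, where 1.97% of all probe sets were lower and 1.59% higher. EXPA9 was lower by -1.06 ± 0.11 (adjusted p = 1.67e-05), with 582 and 938 on H2O2 and 1174 and 913 on control medium at 1 h, against 1459 to 2211 on H2O2 and 1825 to 2027 on control medium later. XTH19 (-1.03 ± 0.24, adjusted p = 0.0172), EXPA4 (-1.0005 ± 0.22, adjusted p = 0.0117), EXLA1 (-0.84 ± 0.16, adjusted p = 0.00408) and EXPB1 (-0.56 ± 0.14, adjusted p = 0.0232) were the others. EXPA4 had 156 and 300 on H2O2 and 300 and 250 on control medium at 1 h in the meristematic zone, and its 8 later arrays lay between 394 and 623. EXLA1 had 48.1 and 55.4 on H2O2 and 64.8 and 28.5 on control medium at 1 h, and 67.0 to 149 later. For EXPA9, EXPA4 and EXLA1 no 1 h array reached the lowest later array. The same held for EXPA20, which did not pass (at most 121 at 1 h and at least 131 later). The share of all probe sets with such a gap was not counted.

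For the elongation zone, EXPA9 alone passed (-0.76 ± 0.11, adjusted p = 0.000329), and again it was lower at 1 h, where 1.85% of all probe sets were lower and 2.25% higher. It had 1394 and 1636 on H2O2 and 1570 and 1471 on control medium at 1 h, against 2524 to 2870 on H2O2 and 2237 to 2947 on control medium later. XTH19 there was at -0.84 ± 0.24 with an adjusted p just over the threshold. EXPA9 was lower at 1 h in both zones. The 2 zones share no array, but every root tip was cut into both, so they are not taken as independent. Replicate deviations of the 1 h control arrays correlated at 0.44 between the zones. Single 1 h arrays decided several of these calls. Without the MZ control array numbered 2 at 1 h only EXPA9 passed in the meristematic zone, and without the MZ H2O2 array numbered 1 at 1 h EXPA4 (adjusted p = 0.128) and EXPB1 (0.147) did not. XTH19 did not pass there without the H2O2 array numbered 2 at 1 h (0.131), nor EXPB1 without the control array numbered 1 at 3 h (0.0558) or 6 h (0.0521) or the H2O2 array numbered 1 at 3 h (0.0593). In the elongation zone EXPA15 passed as well without the control array numbered 1 at 1 h (-0.88, adjusted p = 0.00772), EXPB1 passed without the H2O2 array numbered 2 at 1 h (-0.61), and EXPA8 (-0.87) and EXPB1 (-0.52) passed without the control array numbered 1 at 3 h. XTH18 passed without the H2O2 array numbered 2 at 3 h (-0.74), and EXPA7 (-0.84) and XTH19 (-0.90) without the H2O2 array numbered 2 at 6 h.

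**Figure D5:**
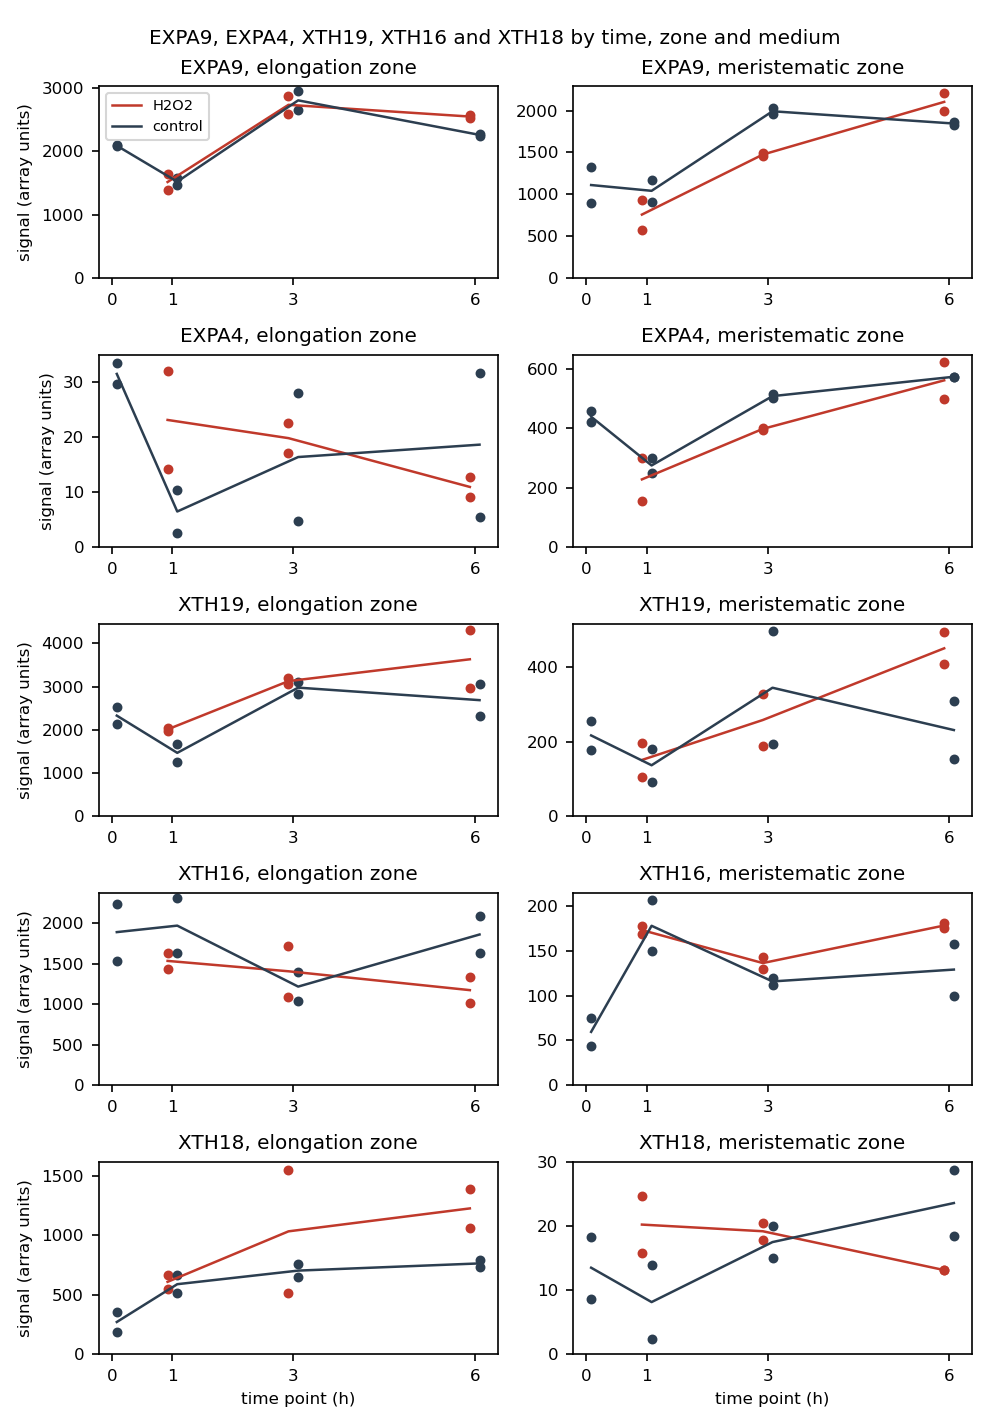
Signal (y axis, linear array units, scaled per panel) by time point (x axis, h) of EXPA9, EXPA4, XTH19, XTH16 and XTH18 in the elongation zone (left) and the meristematic zone (right), with H2O2 in red and control medium in dark. Points are single arrays and lines join group means. EXPA9 is lower at 1 h than at 3 and 6 h in both zones, and XTH16 in the meristematic zone stands at 43.6 and 75.3 at 0 h, below all later points.

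Other genes that act on the same polymers were read from lists by name, and their counts stand against 26% of all probe sets higher and 32.3% lower in the elongation zone on control medium. Of 5 measured CSLC genes, the family that makes the xyloglucan backbone, 3 were higher in the elongation zone on control medium and none was lower. They were CSLC4 (log2 fold change 2.49 ± 0.12, adjusted p = 2.41e-13), CSLC6 (1.1997 ± 0.09) and CSLC5 (0.50 ± 0.09). Among 15 endoglucanases of family GH9, which cut glucan chains in the wall, 8 were higher and 2 lower. GH9B13 (1.68 ± 0.13) and GH9B5 (1.57 ± 0.14) were the highest, and GH9B6 (-2.67 ± 0.14) and GH9B12 (-0.48 ± 0.16) were the lower ones. Of 4 pectin-modifying genes, PME61 was lower (-0.40 ± 0.13), none was higher and 3 did not pass. TRY, the only gene found by name of the list of root hair regulators, was lower (-0.65 ± 0.16). These lists were not refitted under the alternatives. No gene of them passed in any comparison of H2O2 with control medium. In the contrast of 1 h with 3 and 6 h, the endoglucanases GH9C3 (-1.62 ± 0.27), GH9B6 (-1.23 ± 0.17) and GH9C2 (-1.11 ± 0.25) were lower at 1 h and CSLC5 (0.41 ± 0.11) was higher in the meristematic zone, where 1.97% of all probe sets were lower and 1.59% higher. GH9C1 (-0.88 ± 0.22) was lower in the elongation zone, where 1.85% were. No gene of the lists for xyloglucan trimming, plasma membrane proton pumps or extensins and proline-rich wall proteins was found by name. Probe sets that the annotation did not list may still measure some of them.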

How the data were processed

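What was deposited for each array is a linear intensity (signal) per probe set. MAS5 and GCRMA are named in the submitters' processing notes without roles. Every array has the same mean once 2% of its probe sets are set aside at each end, and array medians were 49.3 to 76.1, so no quantile normalisation is visible. Between 24.5% and 31.1% of probe sets per array lay under 16. Detection calls were not used here. Precision is limited by having 2 arrays in each group.

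Of 22810 probe sets, 64 controls were left out and none was filtered. The platform annotation paired 13513 with 1 gene and 503 with several, and did not list 8730. Gene names came from RefSeq (TAIR10.1), where 13436 of the first found their locus, and from there also which genes neighbour each other. Probe sets shared between genes were not taken. Binding of transcripts of close relatives was not checked here.

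After log2(signal + 16), group means were fitted over all 28 arrays with limma 3.58.1 under R 4.3.3. Tests were 2-sided, moderated by eBayes with an intensity trend (14 residual and 5.64 prior degrees of freedom), with Benjamini-Hochberg adjustment over 22746 probe sets. The procedure was tested on simulated data. Alternatives were pseudocounts of 1 and 64, quantile normalisation, a common median, a mean signal of at least 50, no trend, the replicate number as a block, only the arrays compared, and each array left out. The contrast of 1 h with 3 and 6 h, and the fits without the 1 h control arrays numbered 1 or 2, were chosen once values had been seen.

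The genes, the lists and the alternatives were chosen with earlier results of these data known. All 29 genes are accounted for. Signals are given for genes that passed between the zones on control medium (up to 8 highest and 8 lowest), for those that passed with H2O2 or time, and for the 3 largest mean H2O2 effects per zone. Up to 4 genes per other list are named. Other names, such as those below the threshold in single H2O2 comparisons, were chosen after their values were seen.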

Additional observations from a re-analysis of the deposited data

How the results depend on the processing

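No gene that passed between the zones changed direction under any alternative, on control medium (19 genes) or on H2O2 (17). Of those that did not pass, 8 of 10 on control medium and 7 of 12 on H2O2 turned under at least 1 alternative, among them EXLA1, as did 12 of the 29 mean H2O2 effects in MZ and 5 in EZ. The genes higher in the elongation zone on control medium numbered 16, and 10 with a mean signal of at least 50, where fewer genes were tested. On H2O2 they numbered 14, with 9 under that filter and 22 with arrays shifted to a common median. The common median put the median of all probe sets at 0.26 in place of -0.02 on control medium and at 0.28 in place of -0.07 on H2O2. Then 10595 probe sets were higher and 5559 lower on control medium, against 5910 and 7349, and 21 of the 29 genes were higher and 3 lower. Left-out arrays gave 15 to 16 higher and 3 lower genes on control medium, and 12 to 15 higher and 3 to 5 lower genes on H2O2. For H2O2 at 1 h and in the mean in the elongation zone the count of 0 became 1 and 1 without the 1 h control arrays numbered 2, and 0 to 1 and 0 to 2 with single arrays left out. The other H2O2 counts stayed at 0. For control medium after 0 h in the meristematic zone the count of 1 became 0 with a pseudocount of 64, a common median, no trend, only the arrays compared, or without the 1 h controls numbered 2 (0 to 1 with arrays left out). In the elongation zone it became 0 with a pseudocount of 1, no trend, only the arrays compared, or without the 1 h controls numbered 2, 2 with a pseudocount of 64, quantile normalisation or the replicate block, and 4 without the 1 h controls numbered 1 (0 to 3 with arrays left out). The F test over time in the meristematic zone gave 2 in place of 1 with a pseudocount of 1, the replicate block or without the 1 h controls numbered 1, and 0 with no trend, only the arrays compared, or without those numbered 2 (0 to 1 with arrays left out). In the elongation zone it gave 1 in place of 0 with a pseudocount of 64 and 2 without the 1 h controls numbered 1 (0 to 2 with arrays left out). For 1 h against later times in the meristematic zone the count of 5 fell without the 1 h controls numbered 2. It rose without those numbered 1, which added EXLA2 (-1.03) and EXPA15 (-0.77), and it fell with some single arrays left out. EXPA4 was lost with a pseudocount of 1, EXPB1 with 64 and XTH19 with only the arrays compared. EXPA20 was gained with the last 2 of these and with a mean signal of at least 50, and EXLA2 with the replicate block. In the elongation zone the count of 1 became 5 with a pseudocount of 64, 2 with a common median, a mean signal of at least 50 or only the arrays compared, and 3 with the replicate block or without the 1 h controls numbered 1 (1 to 3 with arrays left out). Where no construction of an alternative shows it, the cause was not tested. Replicate numbers shared between groups were not taken as pairs: 13 correlations of their deviations ran from -0.02 to 0.44, 5 of them at 0.1 or below. With the replicate block no zone or H2O2 count moved by over 1.5 times.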

Other observations

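XTH18 and XTH19 lie next to each other in the gene table, as do EXLA1 and EXLA3. The zone differences on control medium were 4.16 ± 0.18 for XTH18 and 3.34 ± 0.19 for XTH19, and -0.08 ± 0.13 for EXLA1 and 0.06 ± 0.17 for EXLA3, so both XTHs were higher in the elongation zone and neither EXLA gene passed. A pair of probe sets shared by several α-expansins, 1 named for EXP26 and EXPA22 and 1 for EXPA25 and EXPA23, was left out of the 29. Their mean signals over all arrays were 8.10 and 3.85, and neither passed between the zones on control medium (-0.23 ± 0.14 and 0.05 ± 0.12).

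PME41, a pectin methylesterase named here after its values were seen, passed between the zones on H2O2 (1.25 ± 0.36, adjusted p = 0.00551) and not on control medium (0.61 ± 0.32, adjusted p = 0.109). The difference between the media did not pass (0.53 ± 0.51). The summed signal of the 4 pectin-modifying genes was 55.1 to 483 in EZ H2O2 arrays and 42.6 to 90.9 in EZ control arrays of 1 to 6 h.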
